A study of Mus musculus with 180 samples.

Results

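The 39 lysosome and autophagy genes described here were chosen by symbol among the 45070 genes whose exonic reads were counted in mouse bone marrow-derived macrophages (BMDMs). They comprise 7 regulators of lysosome biogenesis and of its signalling (Tfeb, Tfe3, Mitf, Flcn, Fnip1, Rragc and Rragd), 5 membrane and sterol transport proteins (Lamp1, Lamp2, Npc1, Npc2 and Mcoln1), the lumenal enzymes and their activator, 5 subunits of the vacuolar ATPase and 9 autophagy genes. The BMDMs came from wild-type male C57BL/6 mice and received 1 of 58 clinical kinase inhibitors (CKIs), or the vehicle DMSO, for 1 h before stimulation with 10 ng/ml LPS for a further 2 h. LPS activates TLR4 and was present in all 59 groups, the vehicle group included, so unstimulated cells are not part of the comparison. Each CKI has 3 samples and DMSO has 6, which the labels divide into 2 sets of 3 without stating which CKIs belong to which set. Each CKI was used at a single concentration, set from its affinity for 1 intended target and therefore different between compounds, and for some compounds that target was not the kinase for which they are best known (Apitolisib was used here against JAK1). Values of single compounds are therefore given side by side, without a test of one against another. Per the methods the mice were a few weeks old and the replicates were independent biological ones.

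Lysosomes are the acidic compartments in which macrophages digest what they take up, and autophagy delivers the cell's own cytoplasm to them. Both are under the control of mTORC1, a kinase complex that sits on the lysosomal surface when nutrients are plentiful. Active mTORC1 phosphorylates the transcription factors TFEB, TFE3 and MITF, which are then held in the cytoplasm, and it inhibits the kinase ULK1, which starts autophagy. When mTORC1 is off, these factors enter the nucleus and bind E-boxes (CACGTG and extensions of it) in the promoters of lysosomal and autophagy genes. PI3K and AKT act upstream of mTORC1. Among the 58 CKIs, 5 are directed at mTOR itself: AZD2014 at both mTOR complexes, and Apitolisib, BGT226, Omipalisib and PF04691502 at PI3K together with mTOR. Another 4 act on the same pathway above mTORC1: AZD8186 and TG100115 on PI3K isoforms, and MK2206 and GSK2110183 on AKT.

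Of the 39 genes, 33 have at least 1 promoter window in the RefSeq table for GRCm38.p6, the assembly known as mm10, each window running from 250 bases before to 50 bases after a transcript start. The letters CACGTG, which read the same on both strands, were found in a window of 13 of these 33 genes (39.4%) and of 2187 of the 27025 genes in the table (8.09%). The longer TCACGTGA, which contains CACGTG and also reads the same on both strands, was found in 6 of the 33 genes (18.2%) and in 304 of all genes (1.12%). The stretches printed here lie directly upstream of genes whose values are given in the paragraphs that follow. They show the first 4 for genes that rose with BGT226 and Omipalisib, and then Mcoln1, Atg5 and Lamp1, which did not, with CACGTG in capitals.
Fnip1, chr11:54438084-54438129, plus strand: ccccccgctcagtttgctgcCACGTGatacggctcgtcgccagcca
Rragc, chr4:123917301-123917346, plus strand: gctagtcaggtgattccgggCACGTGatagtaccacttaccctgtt
Gla, chrX:134601174-134601252, minus strand: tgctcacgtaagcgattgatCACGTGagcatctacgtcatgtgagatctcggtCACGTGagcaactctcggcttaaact
Atp6v1a, chr16:44139365-44139410, minus strand: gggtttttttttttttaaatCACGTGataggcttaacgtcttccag
Mcoln1, chr8:3500428-3500499, plus strand: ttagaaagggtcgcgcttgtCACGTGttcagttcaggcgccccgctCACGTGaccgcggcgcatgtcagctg
Atg5, chr10:44268305-44268338, plus strand: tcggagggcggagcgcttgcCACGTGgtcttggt
Lamp1, chr8:13159080-13159160, plus strand: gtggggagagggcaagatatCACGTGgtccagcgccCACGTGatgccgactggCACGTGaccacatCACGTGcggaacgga
The windows of Gabarapl1, Ulk1, Flcn and Rragd, which also rose with BGT226 and Omipalisib, do not hold these letters. The largest log2 fold changes with BGT226 were those of Flcn (2.09), without a match, and Fnip1 (2.04), with 1. A match is a description of the sequence and not evidence of binding.

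Expression was measured as read counts that the authors scaled on genes varying little between samples and deposited as whole numbers, called normalized values here. Sample totals of these values ranged from 9477340 to 12273349 (median 10521148.5, 180 samples). Each CKI was compared with DMSO by limma on the log2 scale after adding 1 to each value, which makes changes of genes with low values appear smaller, and a gene was called at a Benjamini-Hochberg adjusted p under 0.05 over the 12714 genes with a mean of at least 10. All comparisons with DMSO share the same 6 samples. Of the 39 genes, 38 passed the filter. The exception was Ctsk, a collagen-degrading cathepsin typical of osteoclasts, with values between 2 and 12 in the DMSO samples. The macrophage markers Adgre1, Csf1r, Cd68, Cd14, Itgam, Mertk, Lyz2 and Fcgr1 were all detected in each of the 6 groups examined, and the summed values of the lymphoid, mast cell and basophil, and erythroid lists lay between 0 and 5 in every sample of these groups. In bulk samples, a change in the number of cells of a type and a change in RNA per cell cannot be told apart.

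In DMSO the genes spanned a wide range of levels. Per kb of exon, the aspartyl protease Ctsd was highest, with 40900 normalized values, followed by the cysteine protease Ctsb with 25100 and by Psap, the precursor of the activators of sphingolipid hydrolases, with 17400. The lowest were Rragd with 4.48 and Ctsk with 4.21. Ctsd also varied least between the DMSO samples, with a coefficient of variation of 1.7%, against 54.7% for Ctss, a cysteine protease of antigen-presenting cells, and 64.9% for the vacuolar ATPase subunit Atp6v0d2. A given fold change is therefore measured more closely for Ctsd than for Ctss or Atp6v0d2.

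Over all 58 CKIs, few pairs of a gene and a CKI were called. Of the 2204 pairs of a gene and a CKI, 62 were raised (2.81%) and 50 lowered (2.27%), against 2.52% and 1.65% of the pairs of all 12714 genes. With 38 of the 58 CKIs none of the genes was called by limma, and 17 of these 38 called 0 genes of any kind. This fit had no block for the replicate number, and with such a block some of these 38 called genes of the set. The most were 7 with Tofacitinib (23.9% of all genes called), 7 with TG100115 (12.2%) and 4 with Refametinib (12.5%). The other counts of this paragraph are from the fit without the block. The 5 mTOR-directed CKIs accounted for 59 of the 112 calls and the other 53 CKIs for 53. Over all 12714 genes, 18612 pairs were raised and 12195 lowered. Of these, BGT226 gave 3863, Omipalisib 3264, AZD2014 2490, Apitolisib 2021 and PF04691502 1663, raised and lowered together. The genes never called with any CKI were Lamp2, Ctsb, Neu1, Psap, Atp6v0d2, Atp6v1b2 and Wipi1. BGT226 gave the highest log2 fold change of the 58 CKIs for 19 of the 38 genes and Omipalisib for 5, and for 12 genes these 2 CKIs were the highest pair. The median log2 fold change of all genes was also highest with BGT226 (0.209). Such ranks were not counted over all genes.

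**Figure D1:**
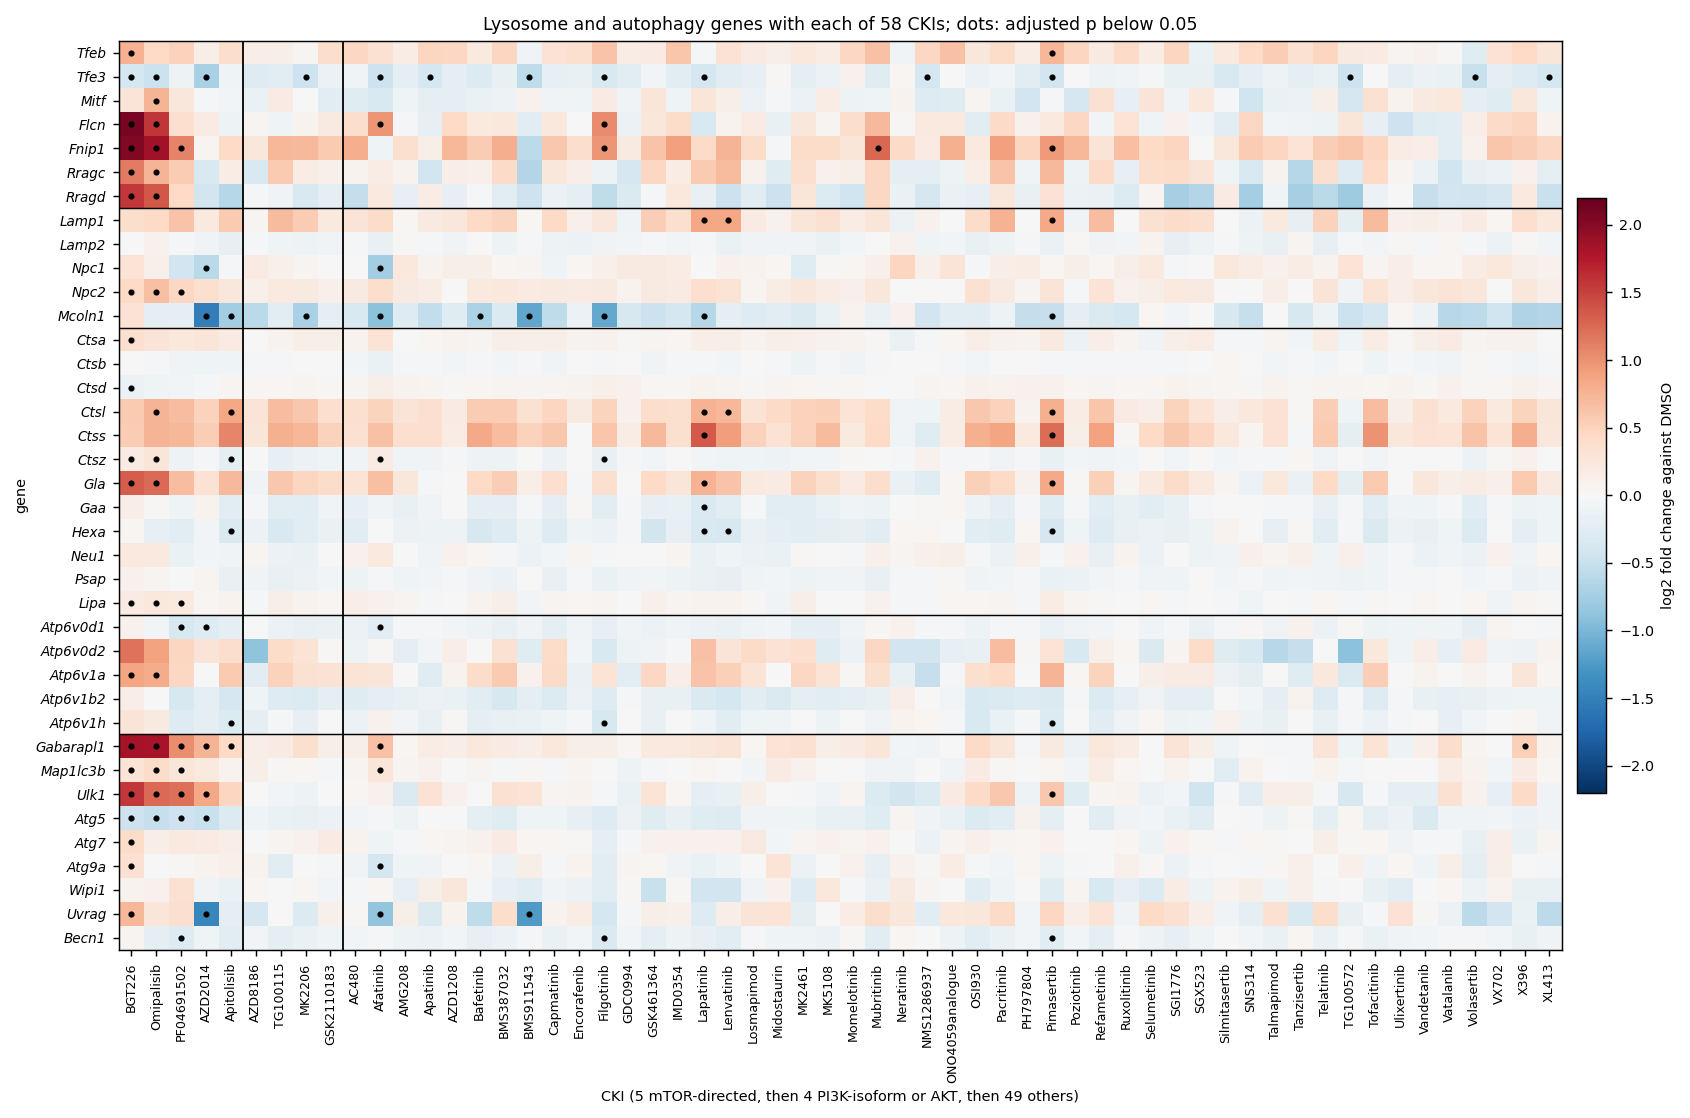
Log2 fold change against DMSO of the 38 tested genes (rows, grouped by role) with each of the 58 CKIs (columns: the 5 mTOR-directed CKIs, the 4 PI3K-isoform and AKT CKIs and the other 49). Red is higher and blue lower than DMSO, and dots mark limma adjusted p under 0.05. The dots are densest in the BGT226 and Omipalisib columns, with 20 and 16 of the 38 genes.

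BGT226 raised 17 of the 38 genes (44.7%) and lowered 3, and among all genes tested it raised 24.1% and lowered 6.32%. Omipalisib raised 14 (36.8%) and lowered 2, where 17.5% of all genes rose and 8.16% fell. PF04691502 raised 6 and lowered 3 (8.86% and 4.22% of all genes), AZD2014 raised 2 and lowered 6 (6.06% and 13.5%), and Apitolisib raised 2 and lowered 4 (12.7% and 3.2%). The share of these genes that rose was thus above the background with BGT226, Omipalisib and PF04691502 and below it with Apitolisib. The genes that rose with both BGT226 and Omipalisib numbered 12 (Atp6v1a, Ctsz, Flcn, Fnip1, Gabarapl1, Gla, Lipa, Map1lc3b, Npc2, Rragc, Rragd and Ulk1). How many of all genes rose with both was not counted, so this number has no background. The values of 11 genes in the 3 BGT226 samples, and of 11 in the 3 Omipalisib samples, lay above those of all 6 DMSO samples. Those of 2 genes with BGT226 and of 3 with Omipalisib lay below them. The same was not counted over all genes, so these numbers have no background to compare with. Scaling the samples again by the median of ratios lowered the median log2 fold change of all genes with BGT226 from 0.21 to 0.02. The calls raised and lowered were then 7 and 3 with BGT226 (15.9% and 15.1% of all genes), 11 and 4 with Omipalisib (13.7% and 13.6%), 3 and 5 with PF04691502 (5.73% and 7.57%) and 1 and 9 with Apitolisib (6.53% and 7.09%). Under this scaling the share raised with BGT226 was near that of all genes, and the share raised with Omipalisib was above it. The 7 genes still raised with BGT226 were Flcn, Fnip1, Rragc, Rragd, Gla, Gabarapl1 and Ulk1. Leaving out replicate 2 of every condition left 10 raised and 1 lowered with BGT226 (17.8% and 3.71% of all genes). It left 7 and 2 with Omipalisib (9.71% and 3.59%) and 3 and 0 with PF04691502 (2.92% and 0.724%). With AZD2014 2 and 3 remained (2.69% and 5.46%), and with Apitolisib 0, where 0 of all genes were called. Leaving out replicate 3 likewise reduced BGT226 to 10 and 1 (17.4% and 4%) and Omipalisib to 9 and 1 (11% and 4.24%). PF04691502 was then at 2 and 2 (5% and 5.09%), and Apitolisib at 0, with 7 of all genes called.

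Gabarapl1 and Ulk1 were the most regular responders. Gabarapl1 encodes a member of the ATG8 family that is attached to the membranes of autophagosomes (chr6:129533192-129542331). Its normalized values in the DMSO samples ran from 573 to 932 with a median of 738. They were 3047, 2546 and 2546 with BGT226, and 2689, 2799 and 2461 with Omipalisib. PF04691502 gave 1707, 1602 and 1338, AZD2014 1365, 1171 and 1268, and Apitolisib 1083, 1026 and 970. All 15 samples of the 5 CKIs lay above all 6 DMSO samples, the only one of the 38 genes for which this was so. How often this occurs among all genes was not counted. The log2 fold change was 1.84 ± 0.14 (SE, n = 3 and 6, limma adjusted p = 1.75e-23) with BGT226, a 3.58-fold increase, and 0.44 ± 0.14 (limma adjusted p = 0.0249) with Apitolisib, a 1.36-fold increase. Outside the 5, Gabarapl1 also rose with Afatinib (0.65) and X396 (0.53).

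Ulk1, the kinase that initiates autophagy (chr5:110784489-110810081), was far less abundant, with values from 41 to 71 and a median of 56.5 in DMSO. BGT226 gave 180, 164 and 159, Omipalisib 160, 127 and 121, PF04691502 144, 135 and 119, AZD2014 99, 99 and 110, and Apitolisib 87, 82 and 69. Of these 15 samples, 14 exceeded every DMSO sample, the exception being 1 of Apitolisib. Ulk1 rose 2.93-fold with BGT226 (log2 fold change 1.55 ± 0.22, limma adjusted p = 1.66e-09) and 1.8-fold with AZD2014 (0.85 ± 0.22, limma adjusted p = 0.00162), and with Apitolisib the change of 0.48 ± 0.22 was not called (limma adjusted p = 0.106). The single other CKI with a called rise of Ulk1 was Pimasertib, at 0.59, a call kept in 5 of 14 alternative settings. Pacritinib ranked above Pimasertib for Ulk1 and was not called.

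Among the other autophagy genes the changes were small and ran both ways. Map1lc3b, which encodes the ATG8 protein LC3B, had values from 2154 to 2973 in DMSO (median 2472.5), and 3329, 2957 and 2994 with BGT226, 3348, 3187 and 3396 with Omipalisib and 3040, 3239 and 2789 with PF04691502. AZD2014 gave 2959, 2993 and 2725 and Apitolisib 2797, 2662 and 2472, both overlapping DMSO. Its rise was called with BGT226, Omipalisib and PF04691502, and the largest was 1.33-fold with Omipalisib (limma adjusted p = 0.000373).

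Atg7, the enzyme that activates ATG8 proteins for conjugation, was between 460 and 538 in DMSO (median 507.5) and 670, 672 and 670 with BGT226, where it rose 1.32-fold (log2 fold change 0.40 ± 0.09, limma adjusted p = 0.000161). With Omipalisib it was 584, 597 and 513, with PF04691502 614, 592 and 560, with AZD2014 546, 657 and 536 and with Apitolisib 565, 571 and 555, and none of these differences was called. The values with PF04691502 and Apitolisib still lay above all 6 DMSO samples.

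Atg5, which encodes the partner of ATG12 in the complex that attaches ATG8 proteins to lipid, went the other way. Its DMSO values were between 402 and 575 (median 514.5). They were 322, 429 and 344 with BGT226, 339, 364 and 342 with Omipalisib, 319, 391 and 374 with PF04691502, 302, 371 and 386 with AZD2014 and 327, 450 and 432 with Apitolisib, so that 12 of the 15 samples lay below the whole DMSO range. The decrease was called with 4 of the 5, from 1.36-fold with BGT226 (limma adjusted p = 0.00505) to 1.42-fold with Omipalisib (limma adjusted p = 0.00201), and with none of the other 53 CKIs. Atg9a rose with BGT226 alone (0.34), Becn1 fell with PF04691502 (fell by 0.28 on the log2 scale), and Wipi1 was not called. Uvrag encodes a subunit of a PI3K class III complex. Its DMSO values of 111 to 374 compared with 426, 475 and 308 for BGT226 (log2 fold change 0.72, limma adjusted p = 0.0417) and 101, 71 and 95 for AZD2014 (-1.44, limma adjusted p = 3.24e-05). The rise with BGT226 was lost in 7 of 14 alternative settings, leaving out any 1 replicate number included, and the fall with AZD2014 in none.

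**Figure D2:**
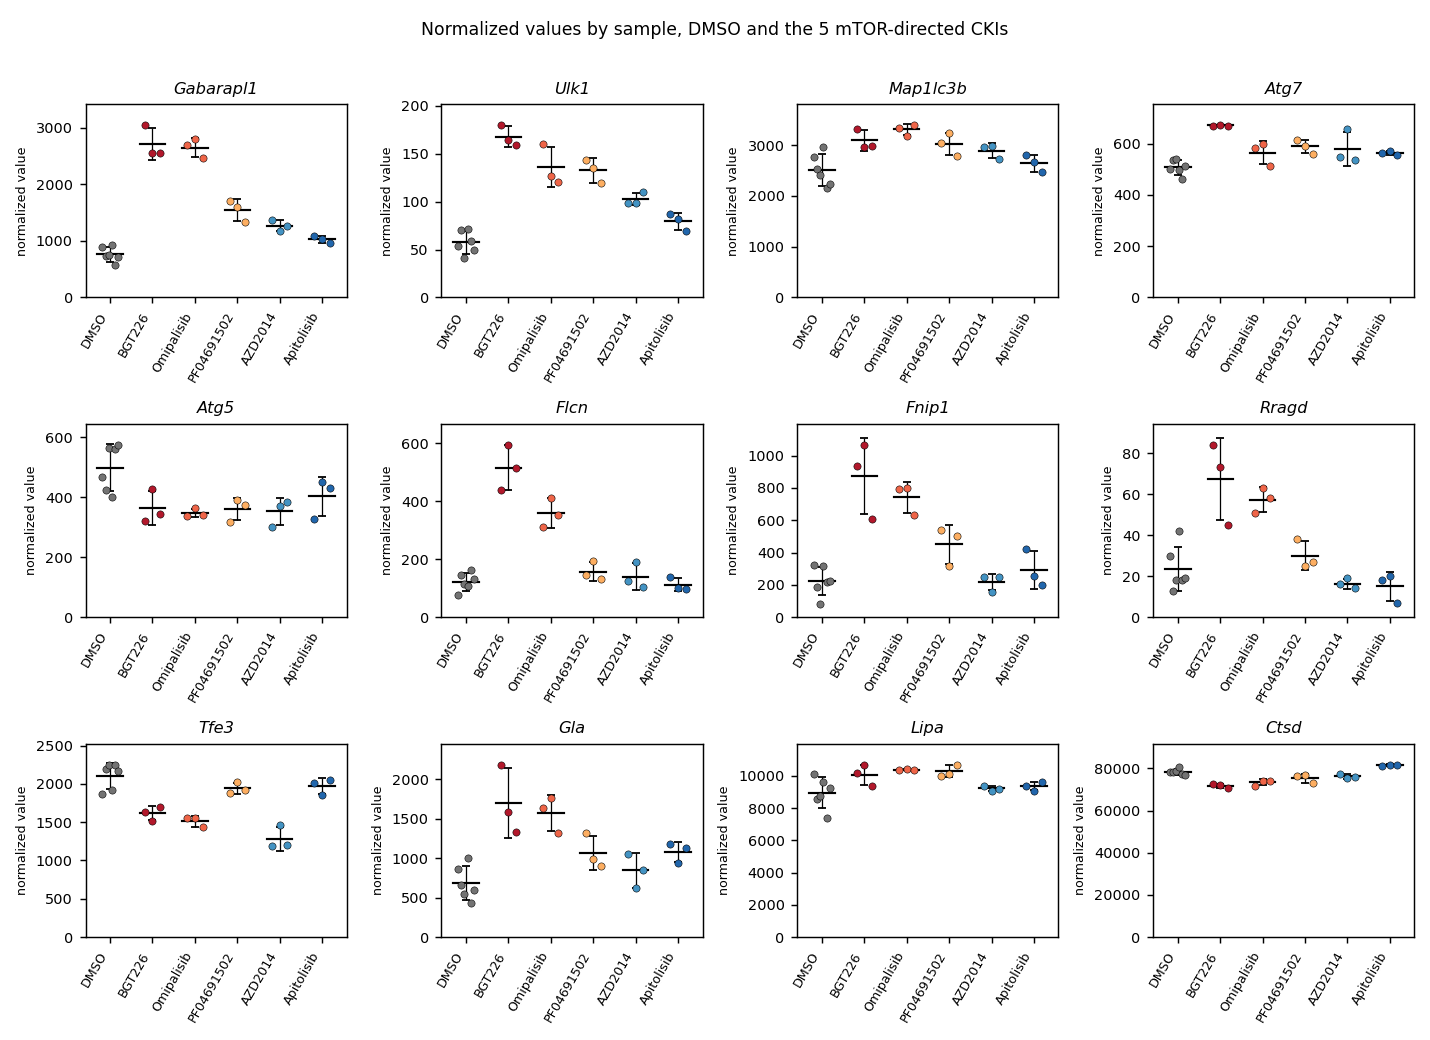
Normalized values of 12 genes in every sample of DMSO (6 points) and of the 5 mTOR-directed CKIs (3 points each), with the mean as a line and the SD as bars, on linear axes that start at 0. In the Gabarapl1 panel all CKI points lie above the DMSO points, whereas in the Flcn panel this is so with BGT226 and Omipalisib and not with AZD2014, PF04691502 or Apitolisib as groups.

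The largest fold changes were those of Flcn and Fnip1 with BGT226, among the regulators that work with mTORC1 at the lysosome. Flcn and Fnip1 encode folliculin and its partner, which together act on the Rag GTPases, and Rragc and Rragd encode 2 of these GTPases, which recruit mTORC1 and its substrates TFEB and TFE3 to the lysosome. Flcn (chr11:59791408-59810039) had values of 76 to 163 in DMSO (median 121.5). It reached 440, 594 and 514 with BGT226 and 312, 412 and 354 with Omipalisib, but was 147, 193 and 130 with PF04691502, 125, 191 and 105 with AZD2014 and 138, 101 and 97 with Apitolisib. The BGT226 and Omipalisib samples thus stood apart from DMSO and those of the other three CKIs overlapped it. The increases were 4.27-fold (log2 fold change 2.09 ± 0.25, limma adjusted p = 4.15e-12) and 2.98-fold (1.57 ± 0.25, limma adjusted p = 1.64e-07).

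Fnip1 (chr11:54438179-54518241, whose promoter stretch with 1 CACGTG is printed above) ran from 80 to 320 in DMSO with a median of 219. It was 938, 1066 and 610 with BGT226, 793, 801 and 632 with Omipalisib and 537, 314 and 504 with PF04691502, and it rose with all of these, 4.12-fold, 3.59-fold and 2.14-fold (limma adjusted p = 1.38e-08, 4.91e-07 and 0.00855). AZD2014 gave 246, 159 and 246 and Apitolisib 423, 256 and 200, and neither difference was called. Outside the 5, Fnip1 also rose with Mubritinib, Filgotinib (0.97) and Pimasertib (0.94), and its median log2 fold change over the 58 CKIs was 0.47, all against the same 6 DMSO samples.

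Rragd (chr4:32982998-33022180), near the filter with DMSO values of 13 to 42 (median 18.5), was 84, 73 and 45 with BGT226 and 51, 63 and 58 with Omipalisib, each sample above every DMSO sample. The increases were 2.92-fold and 2.57-fold (limma adjusted p = 0.000665 and 0.00412). With PF04691502 it was 38, 25 and 27, with AZD2014 16, 19 and 14, and with Apitolisib 18, 20 and 7, within or below the DMSO range. Rragc, of which the values in DMSO were 87 to 236, was 447, 324 and 242 with BGT226 and 250, 315 and 194 with Omipalisib, and rose 2.22-fold and 1.69-fold (limma adjusted p = 0.000669 and 0.0379). Without replicate 2 of every condition neither call of Rragd passed (limma adjusted p = 0.0875 with BGT226 and 0.189 with Omipalisib), nor did that of Gla with Omipalisib (0.0588), and that of Rragc with Omipalisib was lost in 7 of 14 alternative settings.

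The transcription factors moved less, and not together. Tfeb, the principal activator of lysosomal genes, had 70 to 106 in DMSO and 148, 182 and 136 with BGT226, a 1.71-fold increase (limma adjusted p = 0.00894), and was not called with the other four. This call was lost after scaling by the median of ratios and without replicate 2 of every condition. Tfeb also rose with Pimasertib, a call lost whichever replicate number was left out, was above DMSO with 53 of the 58 CKIs (median log2 fold change 0.32), and was not called in the mean of the 5 against the other 53. Mitf rose with Omipalisib alone among the 5, from 417 to 1021 in DMSO to 1444, 1235 and 1354 (1.68-fold, limma adjusted p = 0.0113). Tfe3 fell. Its DMSO values were 1866 to 2251 (median 2181.5), and it was 1629, 1516 and 1697 with BGT226, 1552, 1559 and 1431 with Omipalisib and 1183, 1463 and 1199 with AZD2014, all below the DMSO range. With PF04691502 it was 1878, 2024 and 1921 and with Apitolisib 2011, 1852 and 2053, and these were not called. The decrease was largest with AZD2014, 1.65-fold (limma adjusted p = 2.25e-10), and Tfe3 fell with 14 of the 58 CKIs, of which 11 were not mTOR-directed. Tfe3 was above DMSO with 5 of the 58 CKIs (median log2 fold change -0.19).

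Among the membrane and sterol transport proteins, Npc2, the lumenal carrier that hands cholesterol to NPC1, rose with BGT226, Omipalisib and PF04691502, from 7665 to 12499 in DMSO to 15503, 15181 and 14177 with Omipalisib (1.59-fold, limma adjusted p = 0.000404). Npc1 itself fell with AZD2014 (fell by 0.59 on the log2 scale, limma adjusted p = 0.0126), but by 0.13 without replicate 2 of every condition (limma adjusted p = 0.822) and by 1.09 without replicate 3, and the call was also lost without replicate 1 (limma adjusted p = 0.155). Mcoln1, the calcium channel of the lysosomal membrane, whose promoter stretch holds CACGTG 2 times, did not rise with any CKI. Its DMSO values were 229 to 445, and it was 314, 389 and 359 with BGT226, 105, 83 and 110 with AZD2014 and 177, 199 and 132 with Apitolisib. It fell 2.86-fold with AZD2014 (limma adjusted p = 2.25e-10) and 1.69-fold with Apitolisib (limma adjusted p = 0.0128), and with 9 of the 58 CKIs in all. Mcoln1 was above DMSO with 6 of the 58 CKIs (median log2 fold change -0.33), all against the same 6 DMSO samples. It was not called in the mean of the 5 against the other 53. Lamp1, with 4 copies of CACGTG in its stretch, was not called with any of the 5, and Lamp2 with none of the 58. Lamp1 rose with Lapatinib, Lenvatinib and Pimasertib.

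The lumenal enzymes gave their clearest response in Gla, the alpha-galactosidase that is deficient in Fabry disease (chrX:134588169-134601005, with 2 copies of CACGTG). From 437 to 1003 in DMSO (median 629), its values were 2186, 1582 and 1326 with BGT226 and 1633, 1760 and 1323 with Omipalisib, all above DMSO. PF04691502 gave 1317, 987 and 905, AZD2014 1058, 622 and 852, and Apitolisib 1178, 936 and 1127, which overlapped DMSO and were not called. The increases were 2.52-fold with BGT226 (log2 fold change 1.34 ± 0.28, limma adjusted p = 4.44e-05) and 2.37-fold with Omipalisib (1.25 ± 0.28, limma adjusted p = 0.000226).

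Lipa, the acid lipase that splits cholesteryl esters and triglycerides, changed by little. It was 7370 to 10121 in DMSO (median 8987), 10154, 10657 and 9393 with BGT226, 10360, 10429 and 10385 with Omipalisib, 10010, 10145 and 10694 with PF04691502, 9371, 9088 and 9203 with AZD2014 and 9382, 9091 and 9609 with Apitolisib. The largest of the 3 increases called was 1.17-fold, with Omipalisib (limma adjusted p = 0.00826). The abundant Ctsd moved downward. With DMSO at 76814 to 80722 (median 78275), it was 72753, 71996 and 70932 with BGT226, 71729, 74072 and 74297 with Omipalisib, 76212, 77069 and 72999 with PF04691502, 77618, 75364 and 76005 with AZD2014 and 81005, 81799 and 81701 with Apitolisib. The decrease with BGT226, 1.09-fold, was called (limma adjusted p = 0.0443), while the 3 Apitolisib samples lay above all DMSO samples without a call (log2 fold change 0.06, limma adjusted p = 0.433).

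Ctsl rose with Omipalisib (1.67-fold) and Apitolisib (1.81-fold), and was above DMSO with 55 of the 58 CKIs (median log2 fold change 0.37). Ctsa, the carboxypeptidase that protects other lysosomal hydrolases, rose with BGT226 alone (0.36). Ctsz rose with BGT226 (0.19) and Omipalisib (0.27) and fell with Apitolisib (fell by 0.20 on the log2 scale). Hexa fell with Apitolisib (fell by 0.32), and Ctsb, Ctss, Gaa, Neu1 and Psap were not called with any of the 5. Of the vacuolar ATPase subunits, Atp6v1a, the catalytic one, rose with BGT226 (9490, 7109 and 5895 against 2463 to 6304 in DMSO, 1.83-fold, limma adjusted p = 0.0149) and Omipalisib (7767, 8338 and 5566, 1.77-fold, limma adjusted p = 0.0264), with 1 sample of each inside the DMSO range. Atp6v0d1 fell with AZD2014 (fell by 0.28) and PF04691502 (fell by 0.36), and Atp6v1h with Apitolisib (fell by 0.31). Atp6v0d2 reached 96, 41 and 29 with BGT226 against 4 to 47 in DMSO, and was not called (log2 fold change 1.195, limma adjusted p = 0.0547).

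Averaged over the 5 mTOR-directed CKIs and set against DMSO, 14 of the 38 genes rose and 4 fell, where 24.8% of all genes rose and 12% fell. Their median was 0.13 on the log2 scale, against 0.11 for all genes. By role, 3 of 7 regulators rose (Tfeb, Flcn and Fnip1) and 1 fell (Tfe3), 1 of 5 membrane proteins rose (Npc2) and 1 fell (Mcoln1), 5 of 12 enzymes rose (Ctsa, Ctsl, Ctss, Gla and Lipa), 1 of 5 vacuolar ATPase subunits rose (Atp6v1a) and 1 fell (Atp6v0d1), and 4 of 9 autophagy genes rose (Gabarapl1, Map1lc3b, Ulk1 and Atg7) and 1 fell (Atg5). After scaling by the median of ratios, 7 rose and 7 fell, near the 17.2% and 18.7% of all genes under that scaling. Without replicate 2 of every condition 6 rose and 2 fell (13.2% and 4.17% of all genes). Of the 13 tested genes with CACGTG in a promoter window, 6 rose and 3 fell, and of the 19 with a window but no match, 8 rose and 1 fell.

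The 5 CKIs were also set against the mean of the other 53, which uses no DMSO sample and asks how they differ from kinase inhibitors in general. Of the 38 genes 20 were higher and 4 lower, against 24.3% and 17.2% of all genes, and the median difference was 0.13 against 0.04 over all genes. The differences were largest for Ulk1 (log2 difference 1.06 ± 0.08, limma adjusted p = 1.55e-22), Gabarapl1 (1.02 ± 0.05, limma adjusted p = 5.36e-37), Flcn (0.70 ± 0.10), Rragd (0.68 ± 0.15), Atp6v0d2 (0.66 ± 0.19), Fnip1 (0.64 ± 0.12) and Gla (0.60 ± 0.11), all called. The lower ones were Atg5 (-0.31), Npc1 (-0.21), Tfe3 (-0.15) and Ctsd (-0.11), of which Npc1 was at -0.06 without replicate 2 of every condition (limma adjusted p = 0.628). The SE comes from the spread between replicate samples and not from the spread between compounds. Ctsk, tested without the filter, was 0.63 higher on the log2 scale (limma adjusted p = 0.0408). Its normalized values were 24, 16 and 9 in the BGT226 samples, against 2 to 12 in DMSO. In that fit it was not called for the 5 against DMSO (limma adjusted p = 0.283) or against the 4 PI3K-isoform and AKT CKIs (0.759). Nor was it called with BGT226 (limma adjusted p = 0.187) or Omipalisib (0.385).

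**Figure D3:**
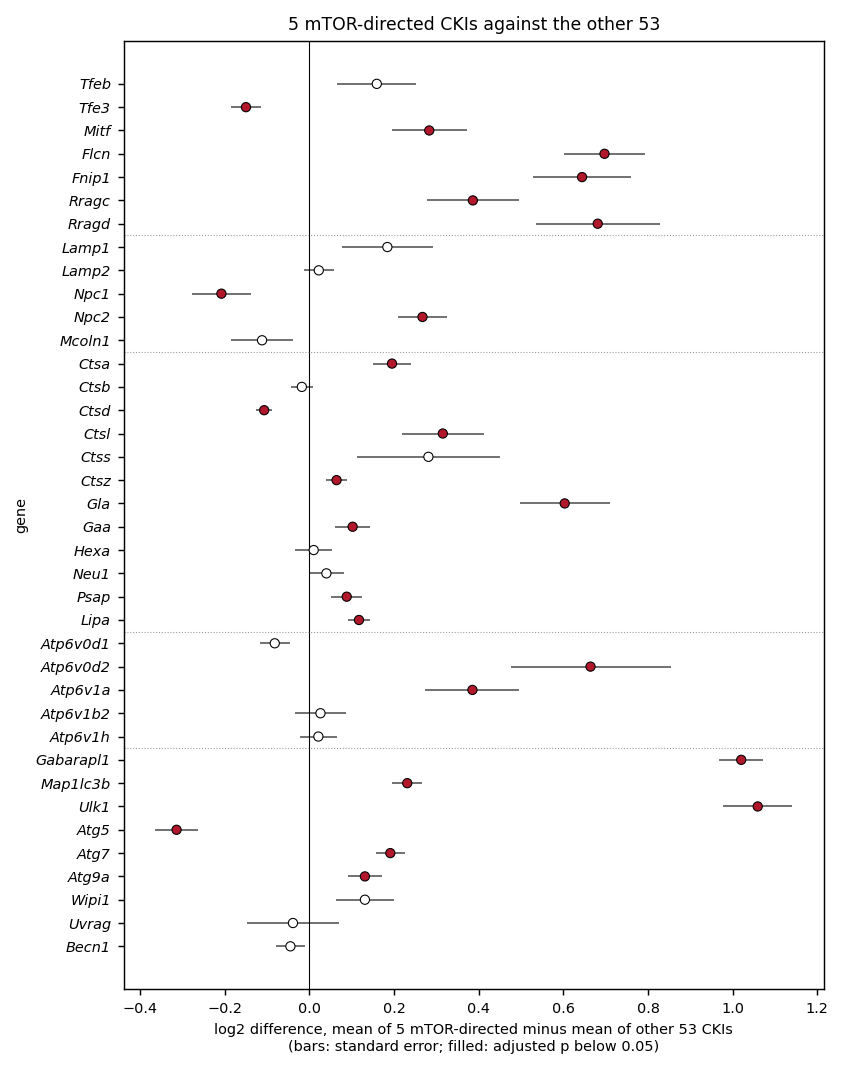
Log2 difference between the mean of the 5 mTOR-directed CKIs and the mean of the other 53 CKIs for the 38 tested genes, grouped by role, with SE as bars. Filled points have a limma adjusted p under 0.05 (20 higher, 4 lower). Ulk1 at 1.06 and Gabarapl1 at 1.02 lie farthest from 0.

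Most of this average came from BGT226 and Omipalisib. With Apitolisib, AZD2014 and PF04691502 alone, a set chosen after the values were known, 6 of the 38 genes were higher and 7 lower than with the other 53 CKIs, where 10.4% of all genes were higher and 15.1% lower. Those higher were Ctsa, Ctsl, Gabarapl1, Map1lc3b, Ulk1 and Atg7. Gabarapl1 (0.58 ± 0.07) and Ulk1 (0.84 ± 0.10) remained called, and Atg5 remained lower (-0.29). Flcn (0.02), Rragd (0.02), Rragc (0.06) and Fnip1 (0.08) were near 0 and not called. Against DMSO these 3 CKIs raised 8 genes and lowered 10 (19.5% and 13.7% of all genes).

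**Figure D4:**
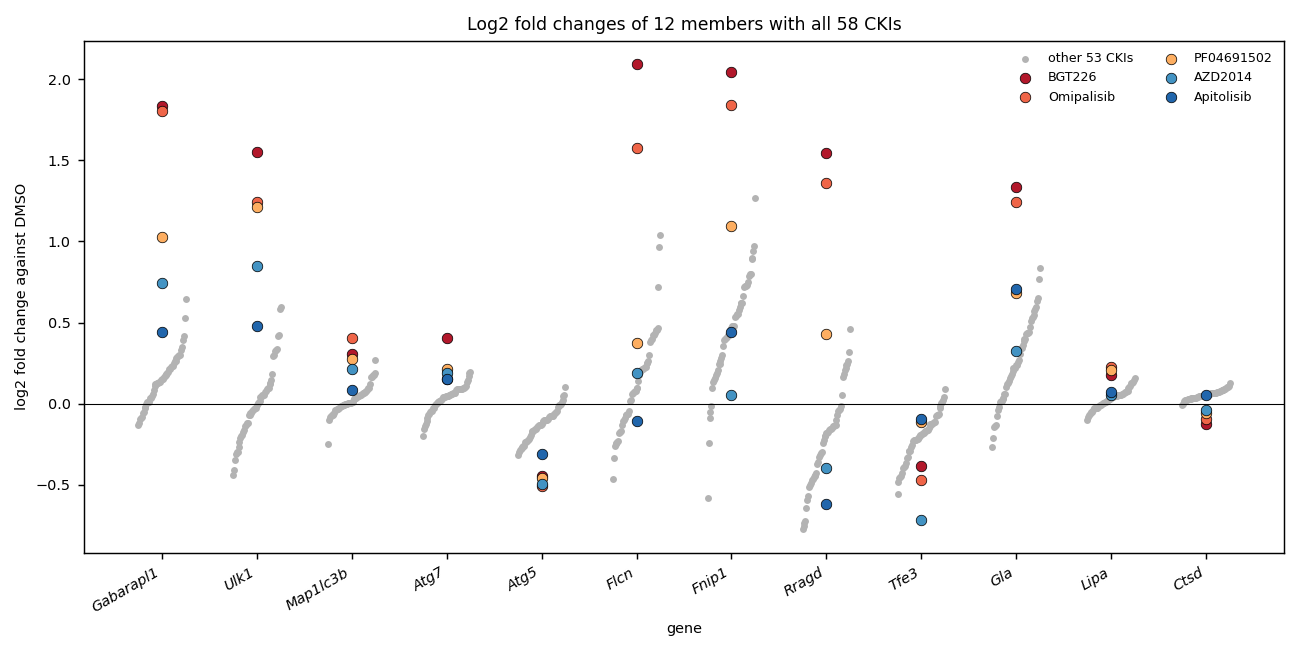
Log2 fold change against DMSO of 12 genes with each of the 58 CKIs, sorted within each panel, with the 5 mTOR-directed CKIs coloured and the other 53 in grey. For Ulk1 the highest 4 are mTOR-directed, from 1.55 to 0.85, followed by Pacritinib and then by Pimasertib at 0.59. For Flcn 2 mTOR-directed CKIs stand at 2.09 and 1.57 and the others lie among the grey points.

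With the 4 CKIs acting on PI3K isoforms or AKT, few of these genes passed the test. AZD8186, TG100115 and GSK2110183 called 0 of the 38 genes by limma, with 2, 11 and 1 at an unadjusted p under 0.05. They called 0.228%, 0.0236% and 0% of all genes, so few calls were made anywhere. MK2206 lowered Tfe3 (fell by 0.45 on the log2 scale) and Mcoln1 (fell by 0.72), with 1.82% of all genes called. With the replicate number as a block, TG100115 called 7 of the genes and 12.2% of all genes. The log2 fold change of Ulk1 was -0.01 with AZD8186, -0.06 with TG100115, -0.12 with MK2206 and 0.00 with GSK2110183, and that of Gabarapl1 was 0.15, 0.19, 0.35 and 0.13 in the same order. Set against the mean of these 4, the 5 mTOR-directed CKIs had 13 genes higher and 2 lower (11.9% and 8.98% of all genes). Ulk1 was 1.11 ± 0.12 higher (limma adjusted p = 5.13e-14), Gabarapl1 0.97 ± 0.07 (limma adjusted p = 7e-22), Flcn 0.77 ± 0.14, Rragd 0.62 ± 0.21, Fnip1 0.53 ± 0.17 and Gla 0.51 ± 0.15. After scaling by the median of ratios 8 were higher (11.2% of all genes), and leaving out 1 replicate number in turn gave 5 to 7 (7.5% to 8.6%). Without BGT226 and Omipalisib, 2 genes were higher, Gabarapl1 and Ulk1, and 4 were lower (3.3% and 6.89% of all genes).

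Outside this pathway the CKIs with the most calls, in the fit without a replicate block, were Pimasertib (7 raised and 5 lowered, with 16% and 5.68% of all genes), Afatinib (4 and 6, with 9.06% and 12.8%), Lapatinib (4 and 4, with 18.1% and 5.26%) and Filgotinib (2 and 5, with 6.1% and 14.6%). Pimasertib is best known as a MEK inhibitor, Afatinib and Lapatinib as inhibitors of EGFR and ERBB2, and Filgotinib as a JAK1 inhibitor. Afatinib and Filgotinib raised Flcn 1.95-fold and 2.06-fold (limma adjusted p = 0.00234 and 0.000912), and all 4 lowered Tfe3 and Mcoln1. Mcoln1 fell most with Filgotinib, 2.18-fold, and Afatinib, 1.87-fold. Pimasertib and Lapatinib raised Lamp1, Ctsl, Ctss and Gla, with Ctss at 2.34-fold and 2.55-fold (limma adjusted p = 0.0355 and 0.0211). Ctss was above DMSO with 53 of the 58 CKIs (median log2 fold change 0.485), all against the same DMSO samples. The median-of-ratios scaling gave 4 raised and 8 lowered for Pimasertib, 2 and 6 for Afatinib, 3 and 7 for Lapatinib and 3 and 4 for Filgotinib. Without replicate 2 of every condition 0 of the genes were called with Pimasertib and Lapatinib, 1 with Afatinib and 3 with Filgotinib. In the same order, 327, 6, 238 and 908 of all 12714 genes were called. Without replicate 3 again 0 were called with Pimasertib and Lapatinib, beside 328 and 344 of all genes.

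Other measures of the samples moved with some of these results. The share of mitochondrial transcripts was on average 1.15% in DMSO, 3.66% with Pimasertib, 2.93% with Apitolisib, 2.76% with Lapatinib and 2.69% with PF04691502, against 1.57% with BGT226 and 1.81% with Omipalisib. With this share and the replicate number in the fit, 0 of the genes were called with Apitolisib, 1 with Lapatinib and 2 with Pimasertib, while 27 were called with BGT226 and 19 with Omipalisib. Calls over all 12714 genes went the same way, with 4 for Apitolisib, 214 for Lapatinib, 352 for Pimasertib, 4948 for BGT226 and 4038 for Omipalisib. With the replicate block alone the counts were 16 of 38 with Apitolisib, 16 with Lapatinib and 20 with Pimasertib (28.4%, 36.3% and 33.9% of all genes). Lenvatinib, with 2 genes raised and 1 lowered without the block (11.4% and 0.802% of all genes), called 15 with it (26% of all genes). The summed values of the osteoclast list (Calcr, Ocstamp, Dcstamp, Oscar, Acp5 and Mmp9) were 197 to 281 with BGT226 and 212 to 250 with Omipalisib against 94 to 134 in DMSO, and at least 1 of its 6 genes was at 0 in all samples of each of these groups. Those of the neutrophil list were 806 to 1305 with Apitolisib against 266 to 931, which overlap. Those of the dendritic cell list (Flt3, Zbtb46, Cd209a, Xcr1 and Clec9a) were 115 to 164 with Omipalisib and 104 to 113 with Apitolisib, above the 58 to 93 of DMSO, and 40 to 64 with AZD2014, with none of the 5 genes at 0 throughout a group. The part of these cell types in the results was not tested.

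Related genes beyond the 39 gave the setting. In the mean of the 5 CKIs against DMSO, where 24.8% of all genes rose and 12% fell with a median of 0.11, 9 of 13 tested further subunits of the vacuolar ATPase rose and 2 fell, among them Atp6v1f (0.55), Atp6v1e1 (0.48) and the accessory Atp6ap1 (0.40) upward and the membrane subunits Atp6v0a2 (-0.65) and Atp6v0a1 (-0.35) downward. Of 42 further lysosomal enzymes and membrane proteins, 12 rose and 7 fell, shares near those of all genes, with a median of 0.04, below that of all genes. The chloride and proton exchanger Clcn7 (0.56) went from 771 to 1125 in DMSO to 2250, 3088 and 3228 with BGT226, while the cystine exporter Ctns (0.80) also rose, and Naglu (-0.72), Ostm1 (-0.48), the partner of Clcn7, and Gusb (-0.23) fell. Clcn7 was called with BGT226 (1.58) and Omipalisib (0.92), and not with Apitolisib (-0.04), AZD2014 (0.105) or PF04691502 (0.21). Ctns was called with the same CKIs as Clcn7. The mean of Naglu was dominated by AZD2014 (-2.34), with 0.22 for BGT226, and it was not called against the other 53 CKIs. Of 42 further autophagy genes, 17 rose and 6 fell, with a median of 0.16.

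Atg12 (1.08 ± 0.07, limma adjusted p = 3.89e-27) led these, with 322 to 402 in DMSO, 1323, 1413 and 1443 with BGT226 and 1244, 1255 and 1313 with Omipalisib. ATG12 is joined covalently to ATG5, whose transcript fell. The ULK1 partner Rb1cc1 (1.04) and the lipid transfer protein Atg2a (1.01) rose as well, and Atg16l1 (-0.72), which binds the conjugate, Trp53inp2 (-0.59) and Atg3 (-0.46) fell. Of 27 further genes of mTORC1 and its regulators, 9 rose and 3 fell. The relative of Fnip1, Fnip2, rose most (1.14), from 179 to 797 in DMSO to 2192, 3300 and 3485 with BGT226, followed by Tsc1 (0.67) and Mlst8 (0.65), and Sesn1 (-0.61), Sesn2 (-0.52) and Lamtor1 (-0.16) fell. Fnip2 was called with BGT226 (2.81) and Omipalisib (2.01), and not with Apitolisib (0.24), AZD2014 (-0.05) or PF04691502 (0.68). Of 6 tested genes known to respond to PI3K and AKT, 2 rose and 3 fell. Irs2 rose 3.5-fold, with all 15 samples above DMSO, and Ccng2 rose 1.77-fold. The sterol-regulated Hmgcs1 and Insig1 fell, 2.03-fold and 1.47-fold, although Insig1 ranged from -1.48 on the log2 scale with AZD2014 to 0.37 with BGT226.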

How the data were processed

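Polyadenylated RNA of 180 samples was copied and amplified by SMART-seq2 and cut with Tn5. Per the study's methods and the labels, the authors aligned reads to mm10 with TopHat2 2.1.1, removed blacklisted regions with bedtools 2.29.2, counted reads on the exons of curated RefSeq genes and scaled the samples on genes that varied little. The deposited whole numbers are handled as a score, since scaling and rounding leave no raw counts, and are named normalized values. The authors tested with DESeq2 in R 3.6.2, and a count test was not run here. The methods do not say that reads were counted by strand, so overlapping antisense genes could not be separated.

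Groups and replicate numbers came from the labels, 3 samples for each CKI and 6 for DMSO. limma 3.58.1 in R 4.3.3 was fitted to log2(normalized value + 1) with a variance trend over all 59 groups, for the 12714 genes with a mean of at least 10, with Benjamini-Hochberg adjustment over these genes and a threshold of 0.05. The fit was tested on simulated data in which the samples varied independently. Effects of the replicate number or the mitochondrial share were not simulated, so that test cannot speak to them. No replicate block was used in the main fit, since the study's methods name none. Same-numbered samples deviated together, with each of their correlations of deviations with DMSO over 0.1, for 34 of 58 CKIs. Apitolisib, TG100115, Lapatinib, Pimasertib and Lenvatinib were among them, and the main counts ignore this pairing. With the block, the count went from 6 to 16 with Apitolisib and from 0 to 7 with TG100115. It went from 8 to 16 with Lapatinib, 12 to 20 with Pimasertib and 3 to 15 with Lenvatinib. A p-value measures the spread between replicate samples. The normalized totals limit the precision of low genes such as Rragd and Ulk1, and the read depth was not recovered here.

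The genes and lists were chosen with earlier results of these data known. Values in every sample are given for the 12 genes with the smallest p among the 29 that were called in the mean of the 5 mTOR-directed CKIs against DMSO or against the other 53 CKIs, or with at least 2 of the 5. From each further list the called genes that rose most and fell most are named, up to 3 of each, with 2 left out that are not reported here. Other genes are named with the compounds that moved them. Promoter windows are from RefSeq (GRCm38.p6), and Python 3.11.15 with pandas 2.3.3 and matplotlib 3.10.9 was used for tables and plots. Alternatives tried were a pseudocount of 0.5 or 10, a filter left out or set at a mean of 50, median-of-ratios scaling, a fit without the variance trend, only the groups compared, each DMSO set alone, leaving out each replicate number, the replicate block with and without the mitochondrial share, and a log2 fold change of at least 1. The mean without BGT226 and Omipalisib was added after seeing the data.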

Additional observations from a re-analysis of the deposited data

Results flagged for a closer look

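In the 6 DMSO samples, the highest value of Mcoln1 stood far from the others. It was 445, the next was 286 and the lowest 229, so that the gap made up 0.736 of the whole range, above Dixon's critical value of 0.625 for 6 samples. The same was seen for Gaa, with 1354 against a next value of 1040 and a lowest of 899, a gap of 0.69 of the range. These are 2 of the 39 genes examined in this way, and chance passes the critical value in about 1 in 20 sets.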

How the results depend on the processing

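The counts in this section are of the 38 tested genes called by limma with each CKI or mean. With the replicate number as a block they were 16 with Apitolisib, 16 with PF04691502, 7 with TG100115, 4 with MK2206, 20 with Pimasertib, 17 with Afatinib, 16 with Lapatinib and 11 with Filgotinib. In the same order, 28.4%, 24.5%, 12.2%, 15.2%, 33.9%, 30.9%, 36.3% and 30% of all genes were called. The block kept all 155 single gene calls examined. Of the 174 CKI samples 126 correlated best with the DMSO samples of their own number, but 7 of the 15 samples of the 5 mTOR-directed CKIs. With the block and the mitochondrial share the counts were 0 with Apitolisib, 14 with AZD2014, 2 with AZD8186, 1 with MK2206, 2 with Pimasertib, 16 with Afatinib and 1 with Lapatinib. In the same order, 4, 3893, 234, 109, 352, 3789 and 214 of all 12714 genes were called. Without a filter the counts were 3 with Apitolisib and 7 with Pimasertib, where 1243 and 2199 of 30850 genes were called. Then 1 gene was lower with the 5 CKIs than with the 4 PI3K-isoform and AKT CKIs (3.12% of all genes). With median-of-ratios scaling the counts were 10 with Apitolisib and 10 with BGT226, where 1731 and 3940 of all genes were called. The mean of the 5 against DMSO gave 7 raised and 7 lowered (17.2% and 18.7% of all genes), and 8 genes were higher than with the 4 (11.2%). Under this scaling the log2 fold changes with BGT226 of Ctsz (-0.006) and Lipa (-0.019) changed sign. With the first DMSO set alone the counts were 0 with Apitolisib, 4 with PF04691502, 1 with MK2206, 2 with Pimasertib, 5 with Afatinib, 1 with Lapatinib and 10 for the mean of the 5 (8 raised, 2 lowered). In the same order, 28, 707, 15, 1247, 1170, 1072 and 2416 of all genes were called. With the second set alone the counts were 1 with Apitolisib, 1 with MK2206, 2 with Pimasertib, 5 with Lapatinib and 3 with Filgotinib, beside 300, 20, 1195, 1275 and 2032 of all genes. Fitted to only the groups compared, the counts were 0 with Apitolisib, 5 with AZD2014, 11 with BGT226, 2 with PF04691502, 0 with MK2206, 6 with Pimasertib, 3 with Afatinib, 5 with Lapatinib and 3 with Filgotinib. In the same order, 751, 1337, 2387, 276, 1, 1304, 484, 1729 and 1259 of all genes were called. In this fit 1 gene was lower than with the 4 (8.43% of all genes).

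Fewer samples remain when 1 replicate number is left out of every condition. The counts then ranged from 0 to 10 with Apitolisib, 5 to 8 with AZD2014, 11 to 18 with BGT226, 9 to 18 with Omipalisib, 3 to 9 with PF04691502, 0 to 1 with MK2206, 0 to 14 with Pimasertib, 1 to 12 with Afatinib, 0 to 10 with Lapatinib and 3 to 6 with Filgotinib. Of all genes, 0 to 2380 were called with Apitolisib, 1036 to 2290 with AZD2014 and 2716 to 3142 with BGT226. The ranges were 1691 to 3463 with Omipalisib, 463 to 1283 with PF04691502, 0 to 210 with MK2206 and 327 to 3653 with Pimasertib. They were 238 to 3178 with Afatinib, 6 to 3393 with Lapatinib and 908 to 2138 with Filgotinib. For the mean of the 5 against DMSO the counts ranged from 8 to 22 (6 to 16 raised, 2 to 6 lowered), against the other 53 CKIs from 19 to 21 and against the 4 from 6 to 8 (5 to 7 higher, 1 to 2 lower). Of all genes, 2209 to 4538, 3810 to 4300 and 1509 to 2120 were called in these means. A log2 fold change of at least 1 was reached by 0 genes with Apitolisib, 2 with AZD2014, 7 with BGT226, 6 with Omipalisib, 3 with PF04691502, 0 with MK2206, 1 with Pimasertib, 0 with Afatinib, 1 with Lapatinib, 2 with Filgotinib, 3 in the mean against DMSO (3 raised, 0 lowered), 2 against the other 53 (2 higher, 0 lower) and 1 against the 4 (1 higher, 0 lower). This threshold was not counted over all genes. Without BGT226 and Omipalisib, an alternative chosen after seeing the data, the mean against DMSO had 8 raised and 10 lowered (19.5% and 13.7% of all genes). That against the other 53 had 13 called (6 higher, 7 lower, with 10.4% and 15.1% of all genes). That against the 4 had 6 called (2 higher, 4 lower, with 3.3% and 6.89%). Ctsz (-0.077) then changed sign against the other 53, and Fnip1 (-0.035), Rragd (-0.035) and Ctsz (-0.020) against the 4. Pseudocounts of 0.5 and 10 kept all 155 gene calls, and 37 of the 155 were kept in every setting that applied, the fold change threshold aside. In the mean against DMSO these were Tfe3, Ctsl, Gla, Gabarapl1, Ulk1 and Atg5, while Flcn and Fnip1 lost their calls without BGT226 and Omipalisib and in no other setting. Where no value shows it, the cause of a change was not tested.

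The 3 samples of a CKI, the low values of Rragd, Ulk1 and Ctsk, and the spread of Ctss, Ctsl and Atp6v0d2 within DMSO limit the precision. The concentrations differ between compounds, so dose and target cannot be told apart among the 5. Every fold change against DMSO rests on the same 6 samples, between whose 2 sets 0 genes were called by limma, with 2 of the 38 genes at an unadjusted p under 0.05.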
